A study of Homo sapiens with 18 samples.

Results

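Splicing was described for 8 genes that are altered, deleted or otherwise linked to neuroblastoma: NF1, KIF1B, ATRX, CAMTA1, CASZ1, HACE1, TIAM1 and PTPN11. An intron of the junction table was taken as a member when at least 1 of its ends lay exactly on an exon boundary of such a gene in GENCODE release 44. This gave 245 introns in 62 clusters, out of 233650 introns in 51819 clusters. NF1 held 76 of them, HACE1 48, TIAM1 28, KIF1B 26, ATRX 26, CAMTA1 23, PTPN11 11 and CASZ1 7. Of the 245, 158 were annotated introns, 31 joined 2 annotated sites in a way that the annotation does not list, and 56 had an annotated site at 1 end only.

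The cells were SHEP.tet21n, a neuroblastoma line carrying a MYCN transgene that doxycycline (Dox) switches off, so all 18 libraries came from a single engineered line. Cells given DMSO expressed MYCN (MYCN+), and cells given 2 μg/mL Dox every 72 hours did not (MYCN-). Each was transfected with a control siRNA (siControl, SNRPD3+) or with either of 2 siRNAs against SNRPD3 (siSNRPD3 #1 and #2, SNRPD3-), giving 6 groups of 3 libraries each, and the study describes its replicates as independent. MYCN-/SNRPD3+ served as the wildtype state. SNRPD3 is a core protein of the Sm ring of the spliceosome. The comparisons ask how the junctions of these genes respond to MYCN, to SNRPD3 depletion and to both. MYCN status and exposure to Dox cannot be told apart here, and the table holds shares of junctions only, so neither MYCN nor SNRPD3 could be checked at the level of expression.

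The value for each intron is its percent spliced in (PSI), its share of all spliced reads of a cluster of introns that share splice sites. PSI sums to 100% in every cluster, and says nothing of transcript level or of unspliced introns. Where a rare junction bridges consecutive introns, they fall into the same cluster and each takes a similar part of the reads, so a PSI near 50% need not mark a choice. For a cassette exon, an inclusion share was therefore computed as the mean PSI of the introns on both sides of the exon, divided by that mean plus the PSI of the intron that skips it. No read counts stood beside the fractions, so the depth behind each value is unknown. Of the 245 introns, 29 had the same value in more than 1 library, which can occur where a cluster holds few or no reads. Replicates of a group correlated across introns with r from 0.847 to 0.871, a description over introns that are not independent. A PSI from bulk RNA is a mean over cells, and a large change in few cells and a small change in all cells cannot be told apart.

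The genes fall into 4 roles. NF1 encodes neurofibromin, a GTPase-activating protein that turns RAS off, and PTPN11 encodes SHP2, a phosphatase that relays receptor signals towards RAS. TIAM1 is an exchange factor that loads the GTPase RAC1 with GTP, and HACE1 is a ubiquitin ligase that marks active RAC1 for degradation. ATRX is a chromatin remodeller that, with DAXX, deposits the histone variant H3.3, and its loss is known in neuroblastoma of older children. KIF1B (a kinesin motor), CAMTA1 (a transcription factor that binds calmodulin) and CASZ1 (a zinc finger transcription factor) lie on 1p36, the part of chromosome 1 that is often deleted in neuroblastoma. The best known regulated exon among them is NF1 exon 23a, which inserts a short stretch into the GTPase-activating domain. The form of neurofibromin with the insert is known to act more weakly on RAS, and neurons are known to favour the form without it.

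Exon 23a is exon 31 of the 58 exons of the canonical NF1 transcript, at chr17:31252938-31253000 (hg38, plus strand). It is 63 bases long, 21 codons, and keeps the reading frame. It is shown here with its intron flanks because the main result turns on it, with the exon in capitals and the introns in lower case.
NF1 exon 23a, chr17:31252908-31253030, plus strand: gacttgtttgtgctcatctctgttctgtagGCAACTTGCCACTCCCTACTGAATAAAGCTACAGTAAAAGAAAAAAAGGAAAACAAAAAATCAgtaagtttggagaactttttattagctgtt
Exon 30 is joined either to exon 23a or, over it, to exon 32, so the competing splice sites are set side by side, again with exon bases in capitals.
Exon 30 donor, chr17:31249111-31249134: TTATACCAGgtatgcttacagtta
Exon 23a donor, chr17:31252992-31253015: AAAAAATCAgtaagtttggagaac
Exon 23a acceptor, chr17:31252914-31252942: tttgtgctcatctctgttctgtagGCAAC
Exon 32 acceptor, chr17:31258320-31258348: caattctcaactccttgtttttagGTGGT

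NF1 exon 23a was included in most junctions of every group, and its inclusion share was lower in MYCN+ than in MYCN- libraries. In wildtype cells (MYCN-/SNRPD3+) the share was 88.4%, 89.1% and 93.9% in the 3 libraries. In MYCN-/SNRPD3- cells it was 89.9%, 88.9% and 82.7% with siSNRPD3 #1, and 89.5%, 83.7% and 83.3% with siSNRPD3 #2. In MYCN+/SNRPD3+ cells it was 90.0%, 81.2% and 82.4%. The lowest values were those of MYCN+/SNRPD3- cells with siSNRPD3 #1, at 79.3%, 77.8% and 66.0%, below every library of the other 5 groups. With siSNRPD3 #2 the MYCN+ libraries stood at 83.7%, 82.8% and 80.0%.

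**Figure D1:**
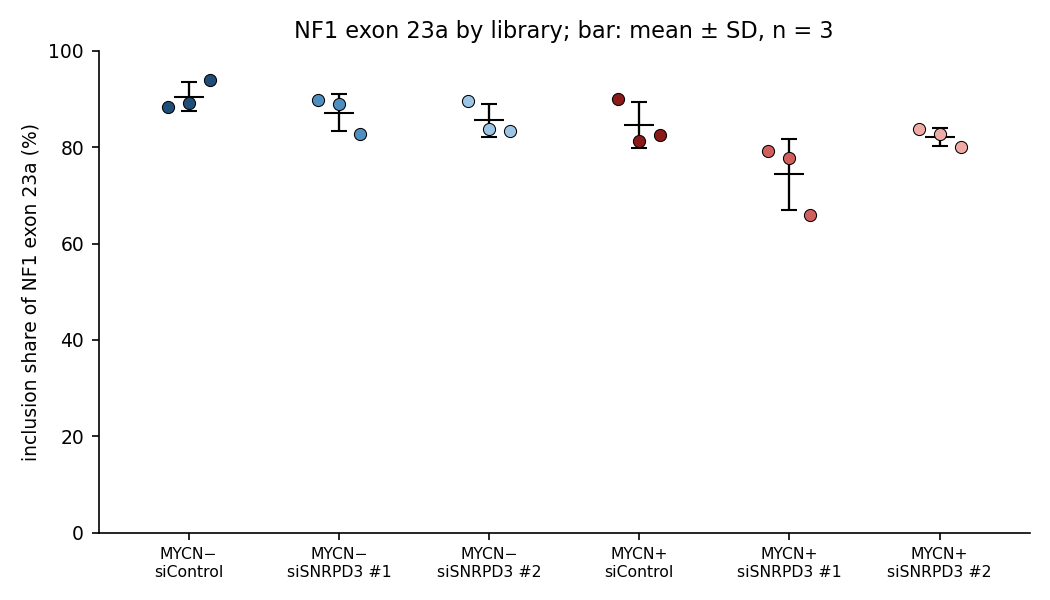
Inclusion share of NF1 exon 23a (y axis, percent) in the 18 libraries, by group (x axis), with points for libraries and bars for the mean ± SD of 3. The 3 libraries of MYCN+ cells with siSNRPD3 #1 lie between 66.0% and 79.3%, below all others, while the wildtype libraries lie between 88.4% and 93.9%.

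Over all libraries, the share averaged 80.4% ± 6.4 (SD, n = 9) with MYCN and 87.7% ± 3.7 (SD, n = 9) without. The difference of -7.36 percentage points passed a two-sided exact permutation test over libraries (p = 0.00485, and 0.0243 after Benjamini-Hochberg adjustment over the 5 tests made on this exon). The 2 ranges overlapped, from 66.0% to 90.0% with MYCN and from 82.7% to 93.9% without. Within each siRNA the difference had the same sign, at -5.90 points for siControl, -12.8 for siSNRPD3 #1 and -3.39 for siSNRPD3 #2. Under siControl alone it did not pass the test (exact p = 0.3, where 3 libraries against 3 cannot give less than 0.1).

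No difference with SNRPD3 depletion passed the test for this exon. The share averaged 82.3% ± 6.5 (SD, n = 12) in depleted and 87.5% ± 4.8 (SD, n = 6) in siControl libraries, a difference of -5.20 points (exact p = 0.0992, adjusted 0.238). It was -4.10 points in MYCN- cells (exact p = 0.143) and -6.30 points in MYCN+ cells (exact p = 0.226). The limma fit covered the 38877 tested cassette events of the table, so many more tests were corrected for. In that fit the exon did not pass for MYCN (log2 odds -0.76 ± 0.22 SE, adjusted p = 0.0961) or for knockdown (-0.57 ± 0.24, adjusted p = 0.33). The MYCN difference thus passed in the test of this exon alone and not in the fit across the table. The comparisons share libraries, siControl ones included, and are not independent of each other.

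The inclusion share rests on 3 introns. The skipping intron, from exon 30 to exon 32, had a PSI of 6.32% ± 2.0 (SD, n = 9) without MYCN and 10.6% ± 3.9 (SD, n = 9) with it (limma log2 odds 0.72, adjusted p = 0.108). The intron upstream of the exon stood at 46.6% ± 2.9 without and 42.5% ± 3.8 with MYCN (SD, n = 9 each, adjusted p = 0.346). The downstream intron stood at 43.0% ± 3.7 and 43.2% ± 2.6 (adjusted p = 0.985). The largest contrast of group means for the skipping intron was between wildtype and MYCN+ cells with siSNRPD3 #1, a difference of 9.45 points (log2 odds 1.55 ± 0.34 SE, adjusted p = 0.0829).

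Across the genes, 147 of the 245 introns had a mean PSI from 1% to 99% and were tested, and none passed limma's threshold (Benjamini-Hochberg adjusted p under 0.05 over all 152722 tested introns) in any of 10 comparisons. For MYCN over all 18 libraries, 0 of 147 passed beside 1.23% of all tested introns, and 11 had an unadjusted p under 0.05 (7.48%, against 11.7% of all introns). For knockdown over all libraries, 0 passed beside 0.0242% of all, and 10 had an unadjusted p under 0.05 (6.80% against 7.80%). For MYCN under siControl, 0 passed beside 0.0543% and 3 had an unadjusted p under 0.05 (2.04% against 6.19%). For siSNRPD3 #1 and #2 in MYCN- cells, 0 passed beside 0.0105% and 0.0151%, with 3 and 6 under the unadjusted threshold (2.04% against 4.54% and 4.08% against 4.69%). For siSNRPD3 #1 and #2 in MYCN+ cells, 0 passed beside 0.0144% and 0.0164%, with 12 and 9 (8.16% against 7.25% and 6.12% against 6.17%). For MYCN+ with siSNRPD3 #1 or #2 against wildtype, 0 passed beside 0.278% and 0.11%, with 11 each (7.48% against 10.4% and 9.19%). For the interaction, 0 passed beside 0.0177%, with 10 (6.80% against 3.98%). The unadjusted share of the members was above that of the table for the interaction and for siSNRPD3 #1 in MYCN+ cells, and below it in the other 8 comparisons. Some of these gaps were small, introns of a cluster depend on each other and the comparisons share libraries. Whether the members differ from the table was not tested. At the highest of these backgrounds, 147 introns would hold fewer than 2 calls.

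**Figure D2:**
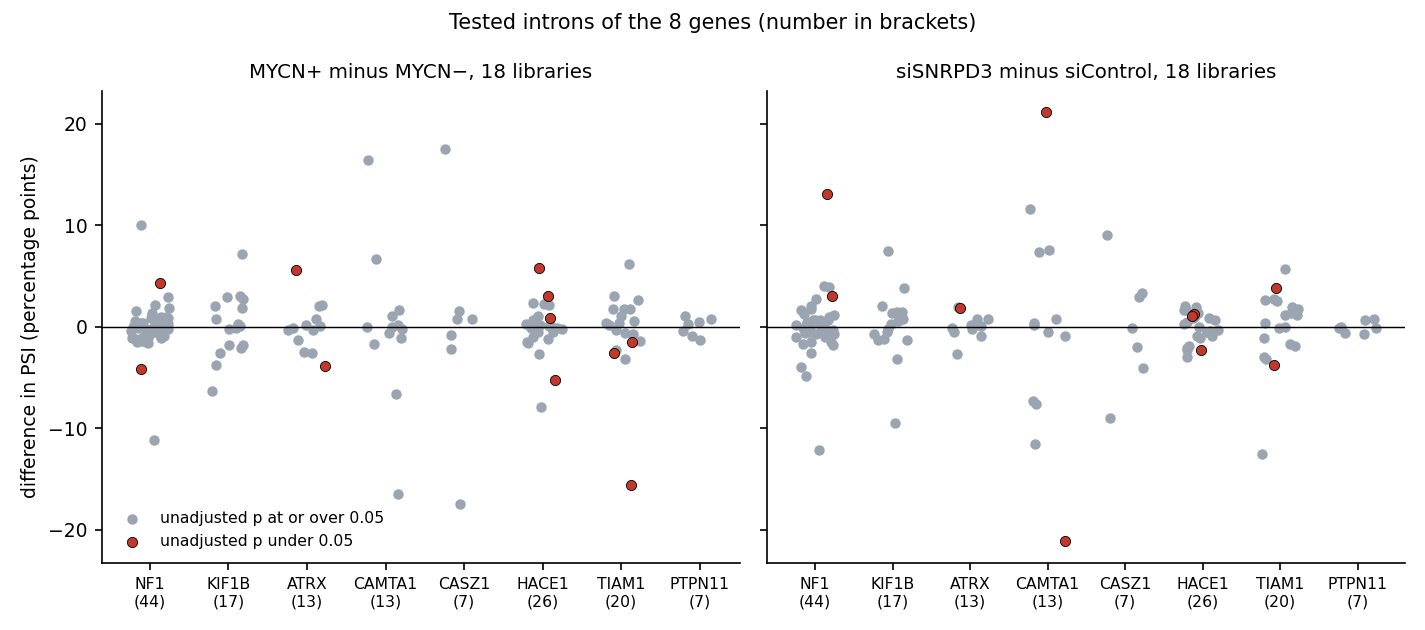
Difference in PSI (y axis, percentage points) of the 147 tested introns, by gene (x axis), for MYCN+ minus MYCN- (left) and siSNRPD3 minus siControl (right), with introns of unadjusted p under 0.05 in red. The widest differences belong to CASZ1 and CAMTA1 junctions for MYCN and to CAMTA1 junctions for knockdown, and PTPN11 introns stay within 1.28 points.

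Of 58 member cassette events in 45 exons, 43 could be tested. With MYCN, 1 was called, the CAMTA1 exon, beside 2.12% of all tested events. Of the 43, 6 had an unadjusted limma p under 0.05 (14%, against 18% of all tested events). With knockdown 0 were called beside 0.00514% of all tested events, with 6 under the unadjusted threshold (14% against 13%). For the interaction 0 were called beside 0.00514%, with 2 under it (4.65% against 4.42%). Inclusion was lower in 27 of 43 events with MYCN and in 30 of 43 with knockdown, with a median of -0.11 and -0.15 log2 odds. The medians over all tested events in the table were -0.19 and -0.23, further from 0 than those of the members.

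NF1 (chr17:31094927-31382116, plus strand) held 44 of the 147 member introns that could be tested. At exon 17, acceptors 3 bases apart were both used, and the second, which the annotation does not list, took 9.01% of the junctions on average (range 4.04% to 16.8%). It is shown with the other closely spaced acceptors because a short window holds the whole choice, and the capitals mark the bases that only the first acceptor keeps in the exon.
NF1 exon 17, chr17:31225074-31225103, plus strand: tatttatttatttttttctagCAGgcagat
ATRX exon 7, chrX:77688919-77688948, minus strand: atagccactcctttctcctagAAGatgggc
PTPN11 exon 11, chr12:112486451-112486480, plus strand: tggtttttcttgGCTCTACTCCAGgggaat
HACE1 exon 16, chr6:104777092-104777121, minus strand: tacatatttagATTCTATTTTTAGgagtag
The NF1 share averaged 8.86% ± 3.4 without and 9.17% ± 4.1 with MYCN (SD, n = 9 each), a difference far inside the spread. The largest NF1 difference under knockdown belonged to an intron at the 3' end of the locus, chr17:31379358-31381872, which occurs in a short transcript annotated for nonsense-mediated decay. Its PSI was between 0.121% and 0.475% in 11 libraries, all 6 siControl ones among them, and between 13.3% and 33.4% in 7 of the 12 depleted libraries, with nothing between. It took only 17 different values in the 18 libraries, and the depth of its cluster is unknown. The siControl mean was 0.238% ± 0.09 (SD, n = 6) and the depleted mean 13.3% ± 12 (SD, n = 12), and the difference did not pass (log2 odds 2.68 ± 0.87 SE, limma adjusted p = 0.413). The competing intron, chr17:31379024-31381872, had the largest NF1 difference with MYCN, from 91.0% ± 10 to 79.8% ± 16 (SD, n = 9 each, adjusted p = 0.686).

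PTPN11 (chr12:112418351-112509918, plus strand) varied little between libraries. Exon 11 begins at either of 2 annotated acceptors 12 bases, or 4 codons, apart, and the first, which adds 4 codons to the canonical exon, took 20.6% of these junctions on average. The share ran from 17.2% through a median of 19.8% to 24.6% in MYCN- libraries and from 17.1% through 20.5% to 24.4% in MYCN+ libraries. Its mean was 19.7% ± 1.8 (SD, n = 6) in siControl and 21% ± 2.8 (SD, n = 12) in depleted libraries. PTPN11 introns differed by at most 1.28 points with MYCN and 0.738 points with knockdown, and none passed. The smallest adjusted p over its 7 tested introns was 0.778.

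TIAM1 (chr21:31118416-31559977, minus strand) varied most upstream of exon 2. The acceptor of exon 2 was joined mainly to the canonical exon 1, to a distal exon at chr21:31463983-31464035 of another transcript, or to a donor 67 bases downstream of that exon's donor that the annotation does not list. The intron from canonical exon 1 had PSI values of 56.1%, 50.5% and 42.2% in wildtype libraries and of 18.5%, 17.6% and 27.9% in MYCN+/SNRPD3+ libraries, with no overlap between these groups (adjusted p = 0.549 for MYCN under siControl). In MYCN+ cells with siSNRPD3 #1 it was 60.8%, 33.2% and 28.1%, and with siSNRPD3 #2 15.8%, 38.8% and 42.3%. Over all libraries MYCN+ was lower by 15.6 points (47.1% ± 11 against 31.4% ± 14, SD, n = 9 each), which did not pass over the whole table (log2 odds -1.02 ± 0.35 SE, limma adjusted p = 0.232).

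The unlisted distal TIAM1 donor showed a split inside 1 group. Its intron, chr21:31339423-31463915, had PSI values of 0.241% and 0.619% in 2 libraries of MYCN+ cells with siSNRPD3 #1 but 46.7% in replicate 3, and between 18.4% and 47.7% in the other 15 libraries. Its mean was 40.1% ± 8.5 (SD, n = 6) in siControl and 27.6% ± 15 (SD, n = 12) in depleted libraries, with an adjusted p of 0.72 for knockdown in limma. Without that replicate 3, the call changed: the adjusted p fell to 0.0146 for knockdown, to 0.0235 for MYCN, to 7.54e-05 for siSNRPD3 #1 in MYCN+ cells, and to 0.000158 for MYCN+ cells with siSNRPD3 #1 against wildtype. Whether this intron passed thus depended on 1 library. TIAM1 exon 3, a noncoding exon of 177 bases, was included in 69.3% of junctions (range 33.3% to 91.3%), with adjusted p of 0.81 for knockdown and 0.974 for MYCN.

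HACE1 (chr6:104728094-104859919, minus strand) had 18 cassette events in 9 exons, most of them combinations of exons 4 to 8. Measured against the unlisted join of exon 6 to exon 8, exon 7 (83 bases) had an inclusion share of 85.5% ± 4.8 in wildtype, 78% ± 4.1 and 75.0% ± 6.0 in depleted MYCN- groups, 82.7% ± 6.6 in MYCN+/SNRPD3+ and 81.0% ± 7.1 and 75.2% ± 4.2 in depleted MYCN+ groups (SD, n = 3 each). The knockdown difference of -6.80 points had an unadjusted limma p of 0.0285 and an adjusted p of 0.323. Neither this exon nor exon 5 (76 bases) is a multiple of 3 bases, whereas exon 6 (132 bases, 44 codons) keeps the frame. Exons 5 and 6, against the rare join of exon 4 to exon 8, stood at 80.7% and 65.0% on average, with wide ranges of 61.1% to 99.8% and 40.6% to 99.6%. The flanking introns of exon 6 in this measure were the joins of exon 4 to exon 6 and of exon 6 to exon 8. For exon 5, the downstream flanking intron joined it to exon 8. These shares thus set skipping joins against each other and do not give how often exon 5 or 6 was left out. At exon 16, an acceptor 13 bases into the exon, which would shift the frame, took 6.52% of junctions (range 2.39% to 19.2%). The first intron, from exon 1 to exon 2, had the largest MYCN difference of the gene, -7.94 points (93.4% ± 7.5 to 85.5% ± 11, SD, n = 9 each, adjusted p = 0.456). The largest knockdown difference was that of the intron from exon 17 to exon 18, from 36.8% ± 4.9 (SD, n = 6) to 33.8% ± 2.6 (SD, n = 12, adjusted p = 0.827).

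ATRX (chrX:77504880-77786233, minus strand) carried a choice at exons 6 and 7. Exon 6 (114 bases, 38 codons) can be left out, and exon 7 begins at either of 2 annotated acceptors 3 bases apart, so 4 combinations share a cluster. Where exon 6 is skipped to the second, shorter exon 7, the skipping intron, chrX:77688925-77696576, had a mean PSI of 13.8% ± 3.8 without and 19.4% ± 2.6 with MYCN (SD, n = 9 each). The 3 wildtype libraries read 10.7%, 14.8% and 13.9%, and the 3 MYCN+/SNRPD3+ libraries 21.2%, 20.8% and 18%, with no overlap (adjusted p = 0.724 for MYCN under siControl). The 18-library difference of 5.61 points did not pass (log2 odds 0.59 ± 0.16 SE, limma adjusted p = 0.118). The inclusion share of exon 6 against this skip was 49.9% ± 5.4 with and 61.7% ± 8.3 without MYCN and did not pass either (log2 odds -0.69 ± 0.21 SE, adjusted p = 0.1). Against the skip to the longer exon 7 it was 60.4% ± 6.2 with and 65.8% ± 6.0 without MYCN (adjusted p = 0.373). Both shares use the same intron upstream of exon 6, which leads to either acceptor of exon 7. They thus do not give how often exon 6 was left out at either acceptor.

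For knockdown, the differences of ATRX exon 6 against the 2 skips were -0.139 and -0.32 points (adjusted p = 0.999 and 0.985). The second acceptor of exon 7 took 37.1% of the exon 7 junctions, 34.9% ± 4.1 without and 39.3% ± 4.8 with MYCN (SD, n = 9 each). Exon 2 (113 bases) was included at 94.9% on average (range 88.9% to 98.5%). At exon 1, a donor 137 bases downstream of the canonical donor supplied 20.8% of the joins to exon 2 (range 8.44% to 31.1%).

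KIF1B (chr1:10210570-10381603, plus strand) was joined mainly to its short end. The donor of exon 22 joins either exon 23, which leads to the long transcripts, or the last exon of the short transcripts, which have 21 exons. The short choice took 83.4% of these junctions on average. It ranged only from 79.9% to 85.9% in MYCN- and from 79.3% to 88.3% in MYCN+ libraries, with means of 83.5% ± 1.7 and 83.4% ± 3.2 (SD, n = 9 each, limma adjusted p = 0.996). In siControl libraries the mean was 82.5% ± 1.7 (SD, n = 6) and in depleted libraries 83.9% ± 2.7 (SD, n = 12). Short and long KIF1B motors are known to differ in the tail that binds cargo. The difference between siControl and depleted libraries was 1.34 points (adjusted p = 0.892).

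Inside the long transcripts, exon 27 of KIF1B (249 bases, 83 codons) was mostly skipped. Exon 26 was joined straight to exon 28 by a junction that GENCODE 44 does not list, at a mean PSI of 81.9%, and the inclusion share of exon 27 was 10.3%. The share was 5.12% ± 4.4 in wildtype, 12.1% ± 1.7 and 16.6% ± 8.1 in depleted MYCN- groups, 7.69% ± 3.5 in MYCN+/SNRPD3+ and 9.5% ± 8.0 and 10.7% ± 5.8 in depleted MYCN+ groups (SD, n = 3 each). The knockdown difference of 5.82 points did not pass (log2 odds 1.08 ± 0.52 SE, adjusted p = 0.396), and single libraries ran from 0.0987% to 25.9%. At exon 15, the acceptor of the canonical transcript took 6.70% of the junctions, and an annotated acceptor 78 bases (26 codons) further on took the rest. The largest MYCN difference was that of the intron from exon 31 to exon 32, from 44.9% ± 9.9 to 52.1% ± 6.5 (SD, n = 9 each, adjusted p = 0.549).

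CAMTA1 (chr1:6785454-7769706, plus strand) held the 1 cassette exon called. The exon of 84 bases at chr1:6871757-6871840 belongs to short CAMTA1 transcripts and is not part of the canonical one. It is shown because it is the called exon, with the exon in capitals.
CAMTA1 exon of 84 bases, chr1:6871727-6871870, plus strand: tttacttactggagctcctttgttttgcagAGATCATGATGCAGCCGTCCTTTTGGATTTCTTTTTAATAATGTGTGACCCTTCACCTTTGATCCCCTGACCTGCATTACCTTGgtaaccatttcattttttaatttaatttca
Its inclusion share sets it against a single skipping join, chr1:6825211-6887653, and leaves out any other join of the same donor. It thus does not give the part of CAMTA1 transcripts that hold the exon. The share was 97%, 98.3% and 98.5% in wildtype libraries and 97%, 98.2% and 97.7% in MYCN+/SNRPD3+ libraries. It was 96.0%, 95.5% and 93.5% in MYCN+ cells with siSNRPD3 #1 and 95.6%, 95.2% and 94.3% with siSNRPD3 #2, while depleted MYCN- libraries ran from 96.5% to 98.3%. The 2 depleted MYCN+ groups were thus the low ones, and MYCN+/SNRPD3+ libraries overlapped wildtype. Over all libraries the share fell with MYCN from 97.8% ± 0.65 to 95.9% ± 1.5 (SD, n = 9 each), by 1.95 points (limma log2 odds -0.68 ± 0.16 SE, adjusted p = 0.0441). The call was lost when any of 16 of the 18 libraries was left out, with an offset of 0.001 (adjusted p = 0.0543) and with the smaller flanking intron in place of the mean (adjusted p = 0.104), and the interaction of MYCN and knockdown did not pass (adjusted p = 1). The knockdown difference was -1.37 points (adjusted p = 0.268).

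Exon 2 of CAMTA1 (70 bases) was included at 79.4% (range 75.0% to 83.6%), among the steadiest values of the set, with 79.5% ± 2.0 without and 79.3% ± 2.0 with MYCN (adjusted p = 0.97). The next exon downstream of the 84-base exon stood at 7.20% with a knockdown difference of -2.05 points (adjusted p = 0.311). The junctions near the 3' end jumped from library to library. The choice of acceptor at exon 16, 339 bases apart, ran from 0.398% to 98.7%. Introns into 2 alternative last exons took only 13 different values in 18 libraries, and the first of them, chr1:7752534-7760602, had PSI values of 97.4%, 49.3% and 66.5% in MYCN+ cells with siSNRPD3 #1 against 0.45%, 0.879% and 0.695% in wildtype, and values of 0.45% to 30.5% in the other groups. The difference from wildtype had a limma adjusted p of 0.0645 on log odds and of 0.0261 on PSI itself, where both introns of the pair were called.

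CASZ1 (chr1:10636604-10796650, minus strand) had 7 tested introns, and they varied widely. Exon 4 was joined either to exon 3 or to the first exon of a short transcript annotated with a retained intron, and the latter share ran from 0.723% to 99.5%. Its mean was 69.9% ± 15 without and 52.5% ± 39 with MYCN (SD, n = 9 each), a difference of -17.5 points that did not pass (limma adjusted p = 0.858). Exon 9 (165 bases, 55 codons) had an inclusion share of 77.9% on average (range 34.3% to 99.8%), with adjusted p of 0.682 for knockdown and 0.929 for MYCN.

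For comparison with the rest of the pathways, 60 other genes linked to neuroblastoma, RAS, chromatin, 1p36 and RAC were taken, of which 50 had testable introns, 632 in all. With MYCN over all libraries, 5 introns were called higher and 5 lower, in 6 genes, which is 1.58% beside 1.23% of the table. Knockdown over all libraries called 0 of 632, beside 0.0242% of the table. In SPRED2, an inhibitor of RAS-MAPK signalling, the intron from a downstream first exon (chr2:65344897-65366589) ran from 5.17% to 9.62% without and from 1.44% to 2.17% with MYCN, with no overlap (limma adjusted p = 3.43e-05). In RAC1, the GTPase that TIAM1 activates and HACE1 removes, the intron into an alternative exon of 57 bases (chr7:6392042-6398661) had a PSI of 4.62% ± 0.23 without and 3.50% ± 0.43 with MYCN (SD, n = 9 each, adjusted p = 0.0292). In DOCK1, another RAC1 exchange factor, use of the acceptor that lengthens exon 12 by 63 bases rose from 15.1% ± 2.5 to 21.8% ± 3.0 (adjusted p = 0.0172). PTPRD (adjusted p = 0.032), whose intron has only 15 different values, and TENM3 (adjusted p = 0.0418) also held introns called with MYCN. For MYCN+ cells with siSNRPD3 #1 against wildtype, 0.475% of the 632 introns were called, beside 0.278% of the table. In BCOR, a chromatin repressor, 2 introns of a cluster were called in that comparison (limma adjusted p = 0.0468). That call was lost under each of 7 other settings of the fit and when any of 16 of the 18 libraries was left out, with adjusted p from 0.00913 to 0.161 over the 18. The MYCN calls of RAC1 and TENM3 were lost with limma's trend and robust options, those of RAC1, PTPRD and TENM3 on PSI itself without log odds, and that of PTPRD with an offset of 0.05. Leaving out 1 library lost the RAC1 call in 13 of 18 cases (adjusted p up to 0.0624), the PTPRD call in 15 (up to 0.0665) and the TENM3 call in 16 (up to 0.0852). The SPRED2 and DOCK1 calls with MYCN over all libraries held in all 18 cases (adjusted p up to 0.000177 and 0.0402).

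**Figure D3:**
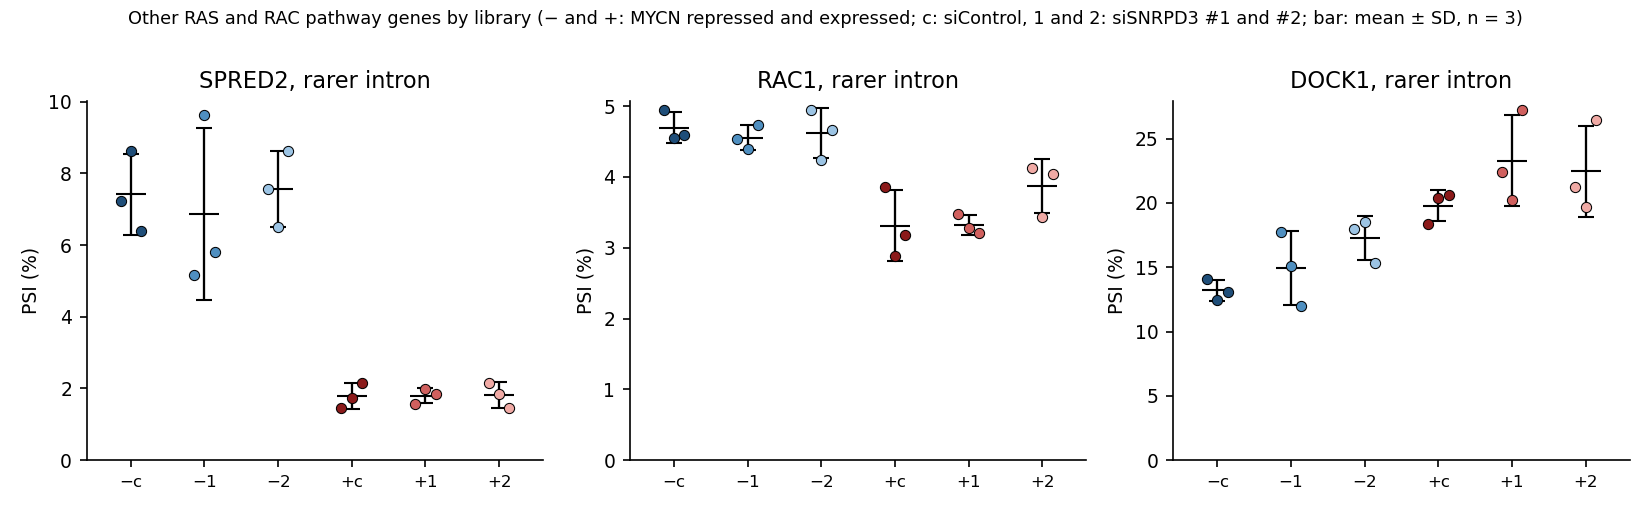
PSI (y axes, percent) of the rarer intron of SPRED2, RAC1 and DOCK1 in the 18 libraries by group (x axes), with points for libraries and bars for the mean ± SD of 3. The SPRED2 intron lies between 5.17% and 9.62% in all MYCN- libraries and between 1.44% and 2.17% in all MYCN+ libraries.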

How the data were processed

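RNA of 18 libraries (6 groups of 3) was prepared with TruSeq Stranded mRNA and, per the authors' methods, aligned to hg38 with STAR 2.5.0a (SAMtools 1.3.1). The aligned reads were run through leafcutter, whose results the authors annotated with GENCODE 28. The deposited PSI table gives each intron as a fraction of its cluster, without reads. A second deposited table holds the authors' own adjusted p-values and PSI differences for pairs of groups and was not used. All 18 columns matched a labelled library (0 unmatched).

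Introns were matched to GENCODE 44 exon boundaries. PSI was converted to log2((PSI + 0.01)/(1 - PSI + 0.01)), introns with a mean PSI from 1% to 99% were kept, and limma 3.58.1 (R 4.3.3) was fitted over all 6 groups with Benjamini-Hochberg adjustment over the table. Cassette shares were fitted the same way. NF1 exon 23a was also tested by exact permutation, listing every assignment of libraries (Python 3.11.15, numpy 2.4.6). The scripts were tested on data with residuals shuffled between libraries and 200 of 152722 introns shifted. With a shift of 1 log2 odds for knockdown over all libraries, 53 of the 200 were called, along with 25 introns not shifted. For siSNRPD3 #1 in MYCN+ cells, 14 were called, along with 12 not shifted. Shifts of this size were thus often missed, and some calls were false.

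Members and gene lists were chosen with earlier results of these data known. Named were the introns of NF1 exon 23a, any called intron or exon, the intron of each gene with the largest PSI difference for knockdown and for MYCN (mean PSI from 5% to 95%, at least 16 different values), and each gene's annotated cassette exons with a share from 5% to 95%, at most the 4 nearest 50%. Called introns of the listed other genes were named too, apart from 1 gene that is counted but not reported here. The splice site choices (acceptors, donors, first and last exons), the CAMTA1 3' end intron and the TIAM1 donor in single comparisons were chosen after their values were seen, and have no test of their own beyond the introns. Sequences were read from hg38. Other offsets, filters, scales, fits and leaving out each library were tried. Depth and precision per library are unknown.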

Additional observations from a re-analysis of the deposited data

How the results depend on the processing

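The count of member introns called was 0 for each comparison and under most settings. Fitting only the groups compared gave 1 call for siSNRPD3 #2 in MYCN- cells, 1 for siSNRPD3 #2 in MYCN+ cells and 1 for MYCN+ with siSNRPD3 #2 against wildtype. The first was in TIAM1 and the others were the NF1 3' end intron. In the same fits, 415, 399 and 724 of all 152722 tested introns were called. PSI itself, without log odds, gave 2 for MYCN+ with siSNRPD3 #1 against wildtype, both in CAMTA1, beside 298 of all 152722. For MYCN over all libraries, no PSI filter gave 1 (a rare HACE1 join), beside 1914 of all 233650 introns. The replicate block gave 1, the ATRX skip of exon 6 (limma adjusted p = 0.0415), beside 2154 of all 152722. Deviations of same-numbered libraries correlated with a mean r of 0.00615 over 45 pairs (lowest -0.0509), against -0.00307 over 90 pairs of different number. Whether the replicate numbers pair the libraries was not tested. For exons, MYCN over all libraries gave 0 with an offset of 0.001, beside 579 of all 38877 tested events. It gave 0 with the smaller of the flanking introns, beside 146 of 39718. Leaving out a library in turn gave 0 to 1 calls for siSNRPD3 #1 in MYCN+ cells, for MYCN+ with siSNRPD3 #1 against wildtype, for knockdown and for MYCN over all libraries (each 1 without MYCN+ siSNRPD3 #1 replicate 3, TIAM1), and 0 to 1 for the CAMTA1 exon with MYCN. Without that replicate 3, the intron comparisons called 40, 141, 36 and 1539 of all 152722, in the order given. The MYCN difference of NF1 exon 23a ranged from -8.57 to -5.57 points and its exact p from 0.000576 to 0.0103, and with the replicate block p was 0.00225. With a library left out, log2 odds changed sign for the NF1 downstream intron (-0.0952 to 0.0641 for knockdown, -0.0483 to 0.0579 for MYCN), CAMTA1 exon 16 (-1.64 to 0.0541, -0.152 to 1.06), CASZ1 exon 4 (-0.497 to 2.39) and PTPN11 exon 14 (-0.137 to 0.0173). The cause was not tested. Depth is unknown, so its part in the spread of any value was not tested.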
